A study of Homo sapiens with 5 samples.

Results

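The genes described here are 10 components of WNT signalling: the secreted antagonists DKK1 and DKK3, the ligands WNT5A and WNT5B, the Frizzled receptors FZD2, FZD6 and FZD7, the coreceptor LRP6, the feedback scaffold AXIN2 and the transcription factor TCF7L2. They were chosen by gene symbol. That choice, and the pathway lists used further on, were made with earlier results of these data known. A comparison of them with all genes is therefore a description and not a test. All 10 were measured, out of 19775 genes on the arrays, through 31 of the 41091 probe sets with a single gene. The cells were MDA-MB-231, an established human breast cancer line that lacks the oestrogen receptor. One group of 3 arrays came from cells given the vehicle DMSO, and the other group of 2 arrays from cells given 2 uM SAHA (suberoylanilide hydroxamic acid, vorinostat), a hydroxamate that inhibits histone deacetylases; both were collected after 30 h, per the labels' treatment text (their extraction text gives lysis in days after a transfection). All arrays share the same cell line and total RNA protocol, and the labels do not say whether replicates came from separate cultures. The p-values therefore measure the array-to-array spread alone, and that spread may be technical. In such bulk RNA a lower level per cell and fewer cells carrying a transcript cannot be told apart.

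In the canonical branch of the pathway, a WNT protein joins a Frizzled receptor to LRP5 or LRP6, the complex that degrades beta-catenin is held inactive, and beta-catenin enters the nucleus to act with TCF/LEF factors. Dickkopf proteins such as DKK1 bind LRP6 and block this step, and AXIN2 is both a target of the branch and a member of the degrading complex. WNT5A and WNT5B are best known for non-canonical signalling, which runs through Frizzleds and the receptors ROR1, ROR2 and RYK to cell polarity and movement, and breast cancer lines of mesenchymal type are known for it.

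Values are log2 intensity, and differences are SAHA minus DMSO on that scale. For each gene the probe set with the highest mean stood for the gene, and a gene was called when its limma p-value, adjusted by Benjamini-Hochberg over all 19775 genes, was under 0.05. Pearson's r across genes (which are not independent replicates) was 0.9972 to 0.9986 within a group and 0.9791 to 0.9801 between groups. DMSO 1 stood apart in the 3' minus 5' difference of the ACTB control probe sets, a sign of RNA integrity, at 3.29 on the log2 scale against 2.04 to 2.22 on the other arrays. The 24 probe sets for poly-A control RNAs were higher on the SAHA arrays, with a median log2 difference of 0.39. Centring on those controls put the median gene at -0.40, so each value below would be lower by about that amount on that scale. The markers fixed for the line, VIM, CD44, CAV1, AXL and ZEB1, had DMSO means of 11.38 to 13.97, and AXL fell by 0.33 (limma adjusted p = 0.0193). The DMSO means of ESR1, PGR and FOXA1 were 7.01, 4.49 and 5.18. Those of PGR and FOXA1 lay below the DMSO array medians of 6.492 to 6.497, and that of ESR1 lay above them. GATA3 and EPCAM, also listed as luminal markers, were brighter, at 9.41 and 10.28, and fell by 0.26 and 0.72 (limma adjusted p = 0.0311 and 0.0102), and the 7 leukocyte, endothelial and fibroblast markers had DMSO means of 3.78 to 9.39, of which PTPRC and COL1A2 were called lower.

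Both Dickkopfs rose after SAHA, as did LRP6 and AXIN2, while WNT5B, FZD2 and FZD7 fell. Of the 10 genes, 4 were called higher and 3 lower. Over all genes, 29.6% were called, 14.0% higher and 15.6% lower. With the dimmest 40% of genes left out, 9 of the 10 remained, 4 called higher and 4 lower. Of the 11865 genes then tested, 2721 were called higher and 3175 lower. The SAHA and DMSO arrays did not overlap for 9 of the 10, against 48.1% of all genes. The median log2 difference of the 10 genes was 0.00, and the median of its size without sign was 0.55, against -0.03 and 0.15 over all genes. Under poly-A centring, 2 of the 10 (DKK1 and DKK3) were called higher and 5 lower.

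**Figure D1:**
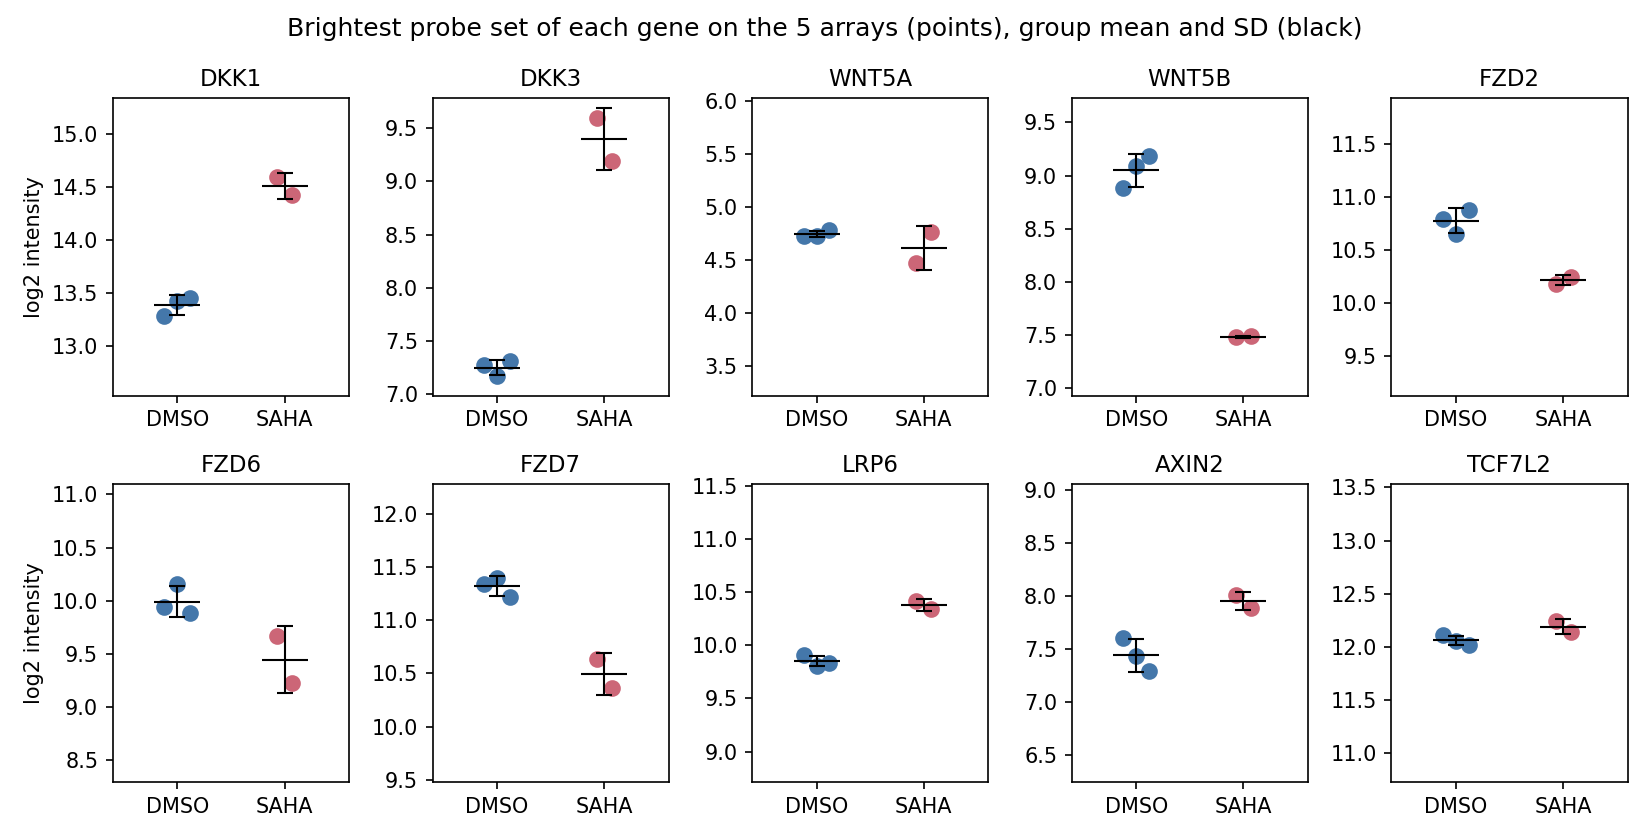
Log2 intensity of the probe set that stands for each of the 10 genes on the 3 DMSO arrays (blue) and the 2 SAHA arrays (red), with the group mean and SD in black and the same height of scale in every panel. WNT5A is the panel where the groups overlap; DKK3 spans the widest gap, from a DMSO mean of 7.25 to a SAHA mean of 9.40.

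DKK1, the secreted antagonist that binds LRP6, was bright in both groups. Its only probe set read 13.28, 13.43 and 13.45 on the DMSO arrays and 14.59 and 14.42 on the SAHA arrays, which is an intensity of 9931 to 11159 against 21941 and 24685. Every SAHA array thus lay above every DMSO array. DKK1 rose 2.17-fold, with a log2 difference of 1.12 ± 0.08 (SE; limma adjusted p = 0.00148, n = 3 and 2). With each array left out in turn it was 1.04 to 1.21 and stayed called. Poly-A centring put it at 0.75.

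The bases before the annotated starts of DKK1 and WNT5B are shown because these are the Dickkopf and the WNT ligand that were called on a bright probe set and have a promoter entry. RefSeq promoter sequences (GRCh38.p14) were used for 4 of the 10 genes, with 8 windows in all. FZD6 was left out of this search by choice, so its promoter was not examined. DKK3, FZD2, FZD7, LRP6 and AXIN2 had no promoter entry. The 250 bases before each start were searched on both strands for the TCF/LEF core TCAAAG, the GC box GGGCGG and the TATA box TATAAA. These motifs do not overlap each other in the windows shown. Capitals mark matches on either strand, and each sequence runs 5′ to 3′ on the strand of the gene. The DKK1 window lies at chr10:52314031-52314280 (plus strand), and the WNT5B windows at chr12:1616806-1617055 and chr12:1628981-1629230 (plus strand).
DKK1: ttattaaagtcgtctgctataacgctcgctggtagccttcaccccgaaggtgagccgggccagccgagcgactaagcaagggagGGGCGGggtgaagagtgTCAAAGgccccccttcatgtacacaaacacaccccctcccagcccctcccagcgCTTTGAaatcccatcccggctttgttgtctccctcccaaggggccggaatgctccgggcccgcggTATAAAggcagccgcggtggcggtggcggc
WNT5B first start: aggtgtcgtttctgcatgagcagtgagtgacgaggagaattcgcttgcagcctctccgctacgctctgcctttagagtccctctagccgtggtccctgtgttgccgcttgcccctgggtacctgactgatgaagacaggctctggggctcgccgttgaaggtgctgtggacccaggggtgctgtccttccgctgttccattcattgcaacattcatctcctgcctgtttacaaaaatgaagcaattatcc
WNT5B second start: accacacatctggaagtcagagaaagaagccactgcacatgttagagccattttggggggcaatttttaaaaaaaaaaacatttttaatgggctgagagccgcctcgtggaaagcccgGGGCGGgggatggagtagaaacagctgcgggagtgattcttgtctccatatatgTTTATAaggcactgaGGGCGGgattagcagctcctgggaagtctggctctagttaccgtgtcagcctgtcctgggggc

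The DKK1 window held the TCF/LEF core 2 times, with its first bases 149 and 95 bases before the start, and the GC box and the TATA box 1 time each, 166 and 30 bases before it. Of the 35116 promoter windows of this length that were searched, 11.2% held the TCF/LEF core, 42.6% the GC box and 10.7% the TATA box. The first WNT5B window held 0 matches, and the second held the GC box 2 times and the TATA box 1 time, the latter on the other strand. Neither the WNT5A nor the TCF7L2 windows held the TCF/LEF core (0 matches each). A match is a run of letters and not a measured binding site, and binding was not measured in these samples.

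DKK3, a Dickkopf that does not act on LRP6 in the manner of DKK1 and is often silenced in tumours, had the largest log2 difference of the 10 genes. Its brightest probe set, 214247_s_at, read 7.27, 7.17 and 7.31 on the DMSO arrays and 9.60 and 9.19 on the SAHA arrays. The groups were far apart relative to their spread, with SD 0.07 (n = 3) and 0.29 (n = 2). DKK3 rose 4.44-fold, a log2 difference of 2.15 ± 0.14 (SE; limma adjusted p = 0.00105). The other 5 probe sets for DKK3 were dimmer, all under 5 on the DMSO arrays. Among these 202196_s_at read 4.37, 4.71 and 4.54 in DMSO and 5.80 and 5.73 in SAHA, and 221127_s_at read 4.23, 4.12 and 4.34 in DMSO and 6.13 and 5.36 in SAHA. Both rose, with log2 differences of 1.23 and 1.51 (limma adjusted p = 0.00404 and 0.0172 over all probe sets). The probe sets 207875_at, 221126_at and 230508_at gave -0.02, -0.23 and 0.04 and were not called, with overlapping groups. All 3 called probe sets have names ending in _s_at, which can share sequence between transcripts or genes, and the 3 that were not called do not. Without such probe sets DKK3 is represented by 230508_at at 0.04 (limma adjusted p = 0.728), and with all its probe sets averaged it gave 0.78.

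WNT5B, a non-canonical ligand close in sequence to WNT5A, fell. Its brightest probe set, 221029_s_at, read 8.88, 9.09 and 9.18 on the DMSO arrays and 7.48 and 7.49 on the SAHA arrays. The SAHA arrays were nearly equal, and both lay well below the lowest DMSO array. The fall was 2.96-fold, a log2 difference of -1.57 ± 0.10 (SE; limma adjusted p = 0.00106). The other probe sets for WNT5B, 223537_s_at and 230299_s_at, gave 0.01 and -0.14 (limma adjusted p = 0.928 and 0.457) from dimmer DMSO readings of 5.28 to 6.10. The call for WNT5B therefore rests on 1 of 3 probe sets, and with the 3 averaged the log2 difference was -0.56.

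WNT5A, the best studied non-canonical ligand in breast cancer, was dim on both of its probe sets, which went in opposite directions. The brighter, 213425_at, read 4.73, 4.73 and 4.78 in DMSO and 4.47 and 4.76 in SAHA, so the groups overlapped. Its log2 difference was -0.13, with a 95% interval of -0.39 to 0.12 (limma adjusted p = 0.375). It was 0.01 without SAHA 1 and -0.28 without SAHA 2, where it was called lower (limma adjusted p = 0.0304). The other, 205990_s_at, read 3.80, 3.58 and 3.87 in DMSO and 4.41 and 4.22 in SAHA, and it rose by 0.57 (limma adjusted p = 0.0316 over all probe sets). With both averaged WNT5A gave 0.22 (limma adjusted p = 0.0604), so no direction is given for this gene.

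The 3 Frizzleds, the seven-pass receptors for WNT proteins, all had lower readings on the SAHA arrays. FZD7, a receptor linked to triple-negative breast cancer, read 11.34, 11.40 and 11.22 in DMSO and 10.64 and 10.36 in SAHA on 203706_s_at. The groups were apart, and FZD7 fell 1.77-fold, a log2 difference of -0.83 ± 0.11 (SE; limma adjusted p = 0.006). Its other probe set, 203705_s_at, read 10.28 to 10.39 in DMSO and 10.41 and 10.08 in SAHA. That difference was -0.11, with overlapping groups (limma adjusted p = 0.567), and the average of both probe sets gave -0.47.

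FZD2, which also takes up WNT5A, was lower on both of its probe sets. The brighter, 210220_at, read 10.79, 10.65 and 10.88 in DMSO and 10.18 and 10.25 in SAHA, a 1.47-fold fall with a log2 difference of -0.56 ± 0.08 (SE; limma adjusted p = 0.00854). The other, 238129_s_at, read 8.12 to 8.22 in DMSO and 7.89 and 7.94 in SAHA and fell by 0.26 (limma adjusted p = 0.026 over all probe sets). FZD2 lost its call when SAHA 1 was dropped (-0.53, limma adjusted p = 0.0796) and when SAHA 2 was dropped (-0.59, limma adjusted p = 0.059).

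FZD6, a Frizzled with a role in planar polarity, has a single probe set and missed the threshold. It read 9.94, 10.16 and 9.88 in DMSO and 9.67 and 9.23 in SAHA, so that the groups did not overlap but the SAHA arrays differed from each other by about as much as from DMSO. The log2 difference was -0.55 ± 0.16 (SE), with a 95% interval of -0.98 to -0.12 (limma adjusted p = 0.0709). It was called lower under 6 of 15 alternative settings and ranged from -0.77 to -0.33 with each array left out in turn.

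LRP6, the coreceptor that Dickkopf-1 binds, rose. Its brightest probe set, 225745_at, read 9.91, 9.81 and 9.83 in DMSO and 10.42 and 10.34 in SAHA, with a log2 difference of 0.53 ± 0.05 (SE; 1.44-fold; limma adjusted p = 0.00299). The other probe sets, 34697_at and 205606_at, also lay higher on both SAHA arrays than on every DMSO array. Their differences were 0.27 and 0.15 and were not called (limma adjusted p = 0.112 and 0.146 over all probe sets). Under poly-A centring LRP6 was 0.15 (limma adjusted p = 0.233), against -0.40 for the median gene.

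AXIN2, a scaffold of the beta-catenin degrading complex that is widely read as a report of canonical signalling, rose on 1 of its 4 probe sets. That probe set, 222696_at, read 7.60, 7.43 and 7.29 in DMSO and 8.01 and 7.89 in SAHA. Its log2 difference was 0.51 ± 0.11 (SE; 1.42-fold; limma adjusted p = 0.0257). The range of the DMSO arrays was about as wide as the gap from the highest of them to the lower SAHA array. The probe sets 222695_s_at, 224176_s_at and 224498_x_at gave -0.19, -0.10 and 0.14, each with overlapping groups. The average over all 4 was 0.09 (limma adjusted p = 0.313). The call also ended without DMSO 2, DMSO 3, SAHA 1 or SAHA 2 (limma adjusted p = 0.0675 to 0.163), and under poly-A centring (0.13, limma adjusted p = 0.327).

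TCF7L2, a DNA-binding partner of beta-catenin, was bright and moved little. Its brightest probe set, 212761_at, read 12.11, 12.06 and 12.02 in DMSO and 12.24 and 12.14 in SAHA. Its log2 difference was 0.13, with a 95% interval of -0.01 to 0.27 (limma adjusted p = 0.166). All 7 of its probe sets had differences above 0, from 0.10 to 0.24, and 0 were called by limma, at an unadjusted p under 0.05 as well as after adjustment. The sign turned under poly-A centring, to -0.24 (limma adjusted p = 0.0612).

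Over the 31 probe sets of the 10 genes, 7 were called higher and 4 lower in the limma fit across all single-gene probe sets, of which 22.1% were called. The groups did not overlap for 18 of the 31, against 43.1% of all such probe sets. Probe sets of one gene are repeated readings of it and not replicates of the treatment. The count of called probe sets was 11 in all, 6 without DMSO 2 and 7 without DMSO 1, DMSO 3 or SAHA 1.

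**Figure D2:**
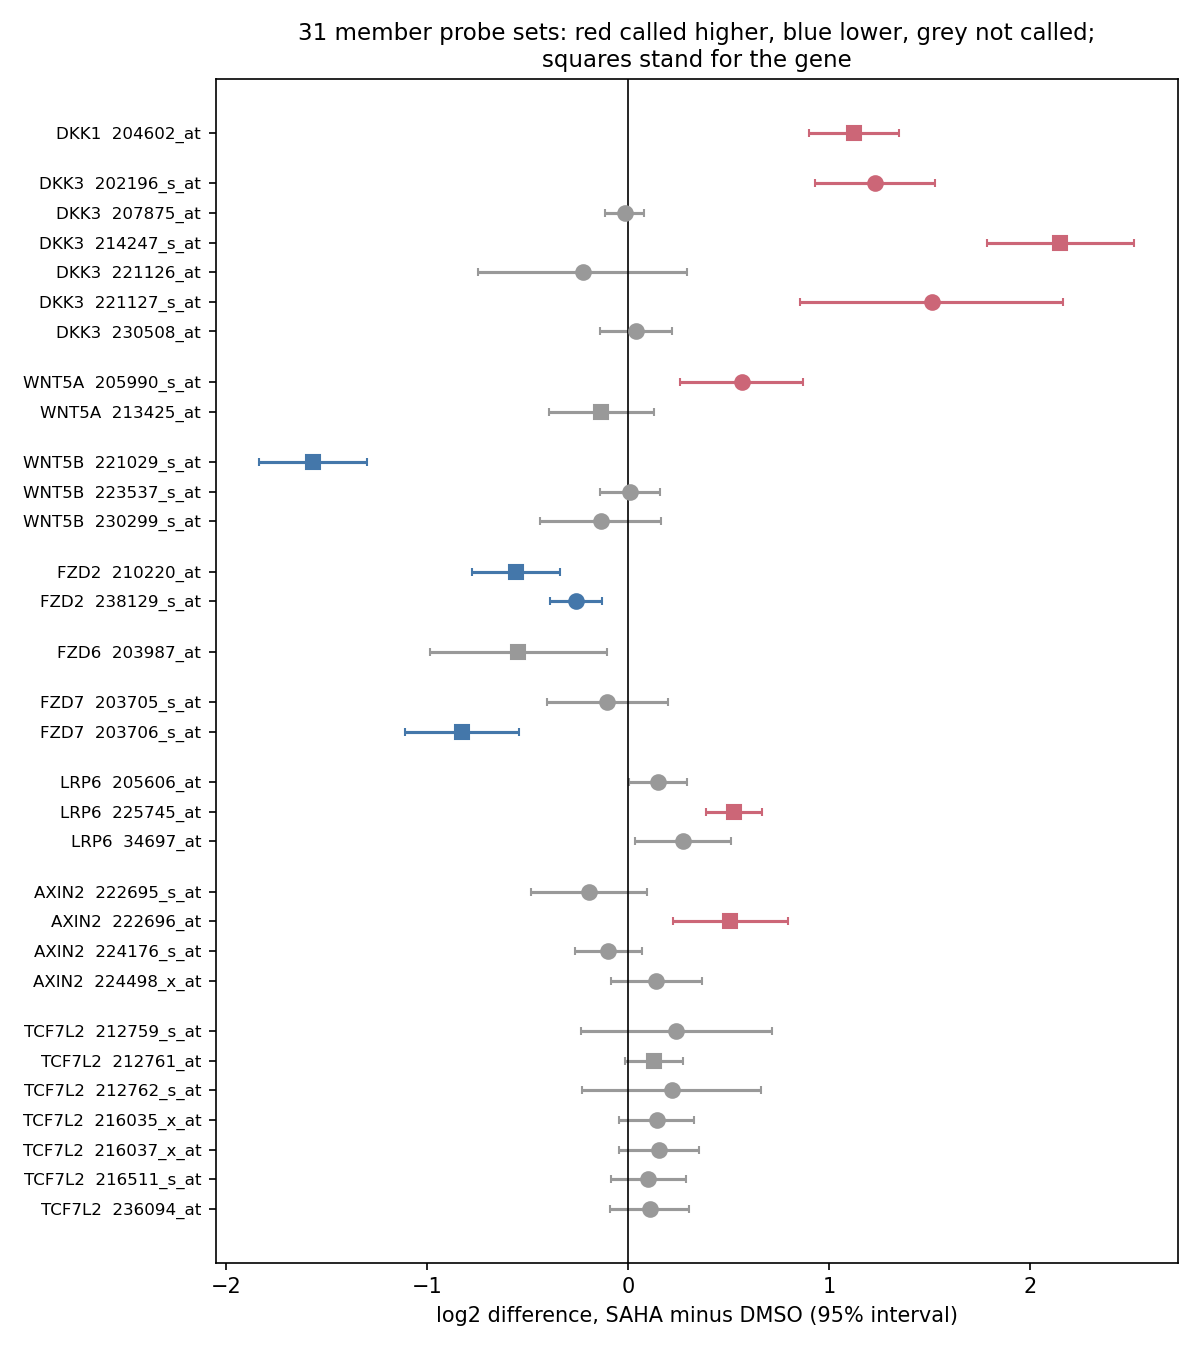
Log2 difference, SAHA minus DMSO, of the 31 probe sets of the 10 genes with its 95% interval from limma, red where called higher, blue where called lower and grey where not called; squares mark the probe set that stands for the gene. DKK3, WNT5A, WNT5B, FZD7, LRP6 and AXIN2 each have called and uncalled probe sets, and both FZD2 probe sets lie below 0.

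Across the rest of the pathway, in 105 measured genes of 111 listed, 19 were called higher and 9 lower, and the median log2 difference was -0.02, against -0.03 over all genes. The share called higher was 18.1%, against 14.0% of all genes, and the share called lower was 8.57%, against 15.6%. The count higher was 9 without DMSO 3, 10 without SAHA 1, 11 without DMSO 1 and 12 without DMSO 2. The count lower was 5 without DMSO 2 or DMSO 3 and 14 without SAHA 2. Under poly-A centring 11 were called higher and 75 lower.

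Among 15 other WNT ligands, 1 rose and 0 fell by limma, and 14 did not pass. The one was WNT2B, a canonical ligand, which read 5.83, 5.66 and 5.47 in DMSO and 6.99 and 6.95 in SAHA. Its log2 difference was 1.32 ± 0.11 (SE; limma adjusted p = 0.0021), on 1 of its 4 probe sets, and 0.45 with these averaged. WLS, which carries WNT proteins to the cell surface, was 0.10 (limma adjusted p = 0.533), with a sign that turned under poly-A centring (-0.27).

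Of 6 other Frizzleds, 1 fell, 1 rose and 4 did not pass. FZD1, close in sequence to FZD2 and FZD7, read 9.09, 9.03 and 8.90 in DMSO and 8.12 and 7.68 in SAHA, a 2.15-fold fall (limma adjusted p = 0.00681), with a log2 difference of -1.10 that was -0.60 with its 3 probe sets averaged. FZD3, a Frizzled of planar polarity, read 7.58, 7.32 and 7.46 in DMSO and 8.31 and 8.10 in SAHA. It rose 1.68-fold (limma adjusted p = 0.0085; 0.0516 without DMSO 3 and 0.0712 without SAHA 1), a log2 difference of 0.75 that was 0.49 with its probe sets averaged.

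Of 5 other receptors and coreceptors, 2 rose. ROR1, a receptor tyrosine kinase for WNT5A, read 9.97, 9.95 and 9.69 in DMSO and 11.11 and 10.52 in SAHA, and all 3 of its probe sets were called higher. Its log2 difference was 0.94 ± 0.20 (SE; limma adjusted p = 0.0274), and the call ended without DMSO 1, DMSO 2, DMSO 3 or SAHA 1 (0.087 to 0.11). PTK7, a pseudokinase of planar polarity, gave 0.92 ± 0.10 (SE; limma adjusted p = 0.00341) on 1 of 2 probe sets, and -0.10 without shared-sequence probe sets. LRP5, the paralogue of LRP6, was -0.14, ROR2 was -0.30 and RYK -0.10 (limma adjusted p = 0.314, 0.0979 and 0.455). In the R-spondin axis, which sets how many Frizzleds reach the surface, 1 of 9 genes rose. This was RNF43, a ligase that removes Frizzleds, at 0.24 (limma adjusted p = 0.0359, up to 0.109 with an array left out), and its sign turned under poly-A centring (-0.14).

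Of 16 other antagonists, 1 rose, 1 fell and 14 did not pass. SOST, which encodes sclerostin, a secreted inhibitor that binds LRP5 and LRP6 as DKK1 does and is best known from bone, read 7.47, 7.31 and 7.16 in DMSO and 9.55 and 9.50 in SAHA. It rose 4.64-fold on its single probe set, a log2 difference of 2.22 ± 0.10 (SE; limma adjusted p = 0.000614), and 2.14 to 2.29 with each array left out in turn. FRZB, a secreted Frizzled-related protein, fell by 0.15 from a dim 4.64 ± 0.02 (SD, n = 3; limma adjusted p = 0.0484). It lost this call with any DMSO array left out, and its log2 difference was -0.16 to -0.13 with each array left out in turn. In the fit over all probe sets, 0 of the 4 FRZB probe sets were called, with log2 differences of -0.15 to 0.05. KREMEN1 did not pass on its brightest probe set, at -0.14 (limma adjusted p = 0.298). A dimmer KREMEN1 probe set read 6.51, 6.4 and 6.61 in DMSO and 7.76 and 7.98 in SAHA. That probe set was called higher, with a log2 difference of 1.36 (limma adjusted p = 0.00251 over all probe sets). The remaining KREMEN1 probe sets were not called. The other Dickkopfs did not pass: DKK2 read 5.27 on all 5 arrays, and DKK4 6.16 to 6.20 (limma adjusted p = 1 and 0.757). Equal readings of this kind occurred within a group for 6188 of the 19775 genes and for 7 of the 31 probe sets.

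**Figure D3:**
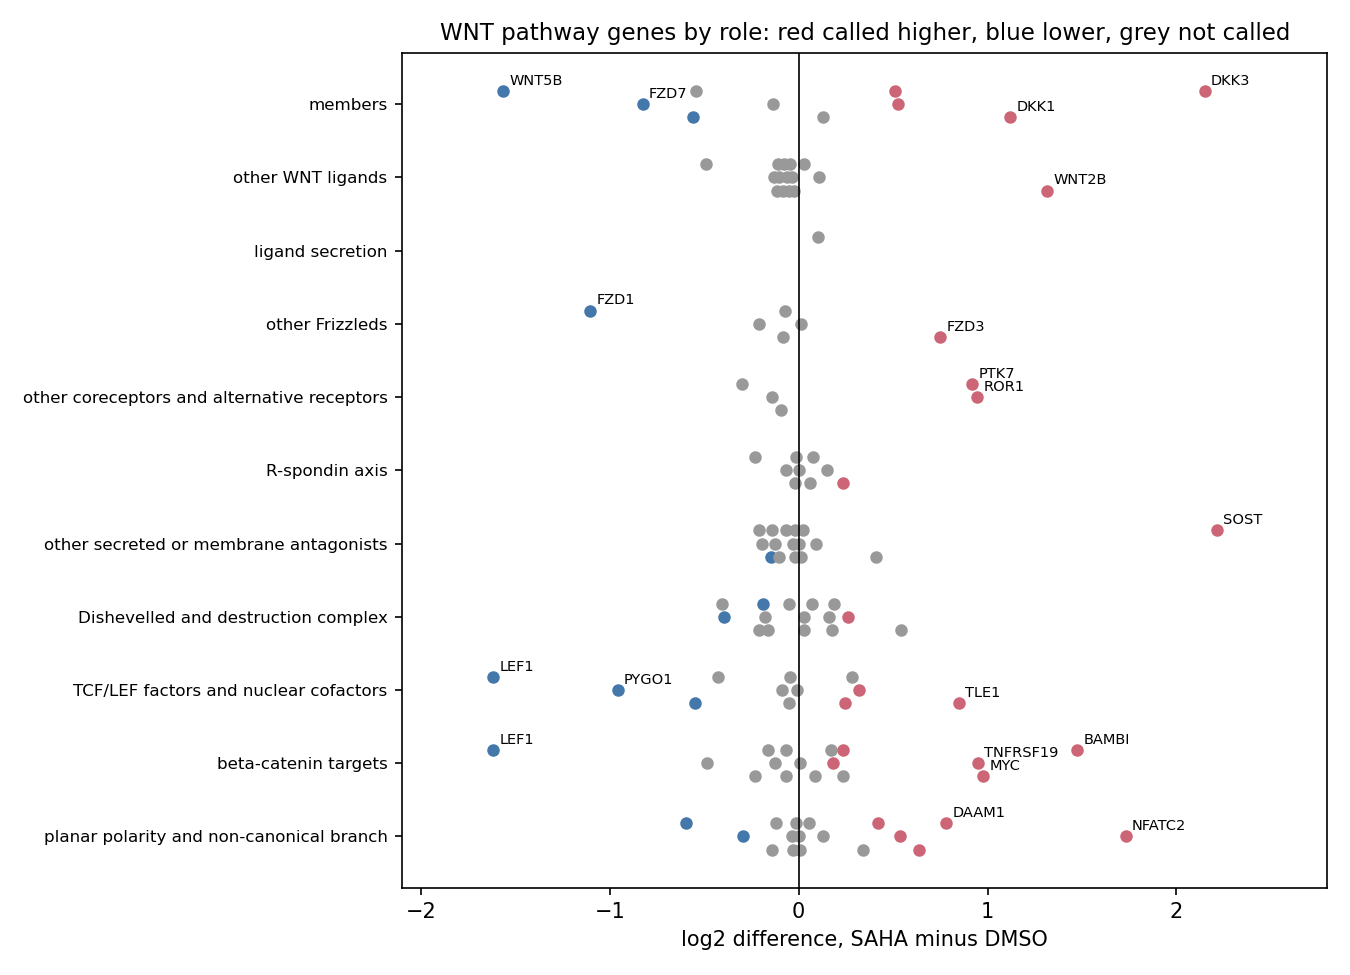
Log2 difference, SAHA minus DMSO, of the 10 genes (top row) and of 105 further WNT pathway genes by role, 1 point a gene, red where called higher, blue where called lower and grey where not called; called genes beyond 0.7 in size are named, and 7 genes, LEF1 and RNF43 among them, stand in 2 rows. SOST and DKK3 lie farthest to the right, and LEF1 and WNT5B farthest to the left.

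Inside the cell, 1 of 15 genes of the Dishevelled and beta-catenin degrading group rose and 2 fell. DVL3 and DVL2, which pass the signal on from Frizzleds, fell by 0.40 and 0.19 (limma adjusted p = 0.00841 and 0.0251), and the kinase GSK3B rose by 0.26 (limma adjusted p = 0.0482). With probe sets averaged DVL3 was -0.24 and DVL2 -0.11. Each of these calls ended with 2 or more of the 5 arrays left out in turn, and that of GSK3B turned sign under poly-A centring (-0.11). Of 5 GSK3B probe sets, 3 were called higher in the fit over all probe sets and 2, the brightest among them, were not. Their log2 differences were -0.08 to 0.76. CTNNB1, which encodes beta-catenin, was 0.16 and APC 0.54 (limma adjusted p = 0.342 and 0.0883).

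Of 12 TCF/LEF factors and cofactors, 3 rose and 3 fell. LEF1, a TCF/LEF factor that is also a target of the pathway, read 7.64, 7.68 and 7.80 in DMSO and 6.0 and 6.18 in SAHA. It fell 3.07-fold, a log2 difference of -1.62 ± 0.08 (SE; limma adjusted p = 0.000721), on 1 of 3 probe sets, and -0.58 with these averaged. PYGO1, a cofactor of beta-catenin, fell by 0.96 and TLE5, of the Groucho corepressor family, by 0.55 (limma adjusted p = 0.00121 and 0.0235). PYGO1 was -0.59 with its probe sets averaged. The corepressor TLE1 rose by 0.85 (limma adjusted p = 0.00371). Of its 5 probe sets, 3 were called higher over all probe sets and 2 dimmer ones were not, with log2 differences of 0.03 to 1.41. The calls of TLE5 (without DMSO 2, DMSO 3, SAHA 1 or SAHA 2) and TLE1 (without SAHA 1, 0.0507) ended with an array left out.

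Of 16 measured beta-catenin targets, 5 rose, RNF43 among them, and 1, LEF1, fell. BAMBI, a decoy receptor of the TGF-beta family, rose by 1.47 ± 0.07 (SE; limma adjusted p = 0.000721), from 9.61, 9.45 and 9.64 to 11.01 and 11.06. MYC, the transcription factor, and TNFRSF19, a TNF receptor family member, rose by 0.98 and 0.95 (limma adjusted p = 0.0068 and 0.00634). MYC was not called on 4 arrays when either SAHA array was dropped (limma adjusted p = 0.0749 and 0.0517). TNFRSF19 was 0.34 with its probe sets averaged. CCND1, NKD1, NOTUM and SP5, further targets used to read the pathway, were 0.17, -0.16, -0.13 and -0.49 and did not pass (limma adjusted p = 0.0818 to 0.389).

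Of 17 genes of planar polarity and other non-canonical branches, 5 rose and 2 fell. NFATC2, a calcium-regulated transcription factor, read 7.30, 7.16 and 7.37 in DMSO and 9.04 and 8.98 in SAHA, a 3.32-fold rise (limma adjusted p = 0.000609), and its log2 difference was 0.86 with 4 probe sets averaged against 1.73. The formin DAAM1 rose by 0.78 (limma adjusted p = 0.00292). ANKRD6 rose by 0.64 (limma adjusted p = 0.0303, not called without DMSO 1, DMSO 2, DMSO 3 or SAHA 1). The polarity cadherin CELSR1 fell by 0.60 (limma adjusted p = 0.00171; -0.20 with its probe sets averaged).

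The genes nearest in profile to DKK3 and WNT5B, which of the 10 genes were the called ones with the largest differences, were found by the root mean square distance of log2 values over the 5 arrays after subtracting each gene's DMSO mean. Those nearest to DKK3 were MAL2 (0.059), RGS17 (0.067) and LINC01419 (0.074), with log2 differences of 2.23, 2.22 and 2.18. Those nearest to WNT5B were PMF1 (0.048), NDE1 (0.052) and AP1M2 (0.060), with differences of -1.52, -1.53 and -1.63. With 5 arrays in 2 groups this distance mostly reads the size of the difference between the groups.

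**Figure D4:**
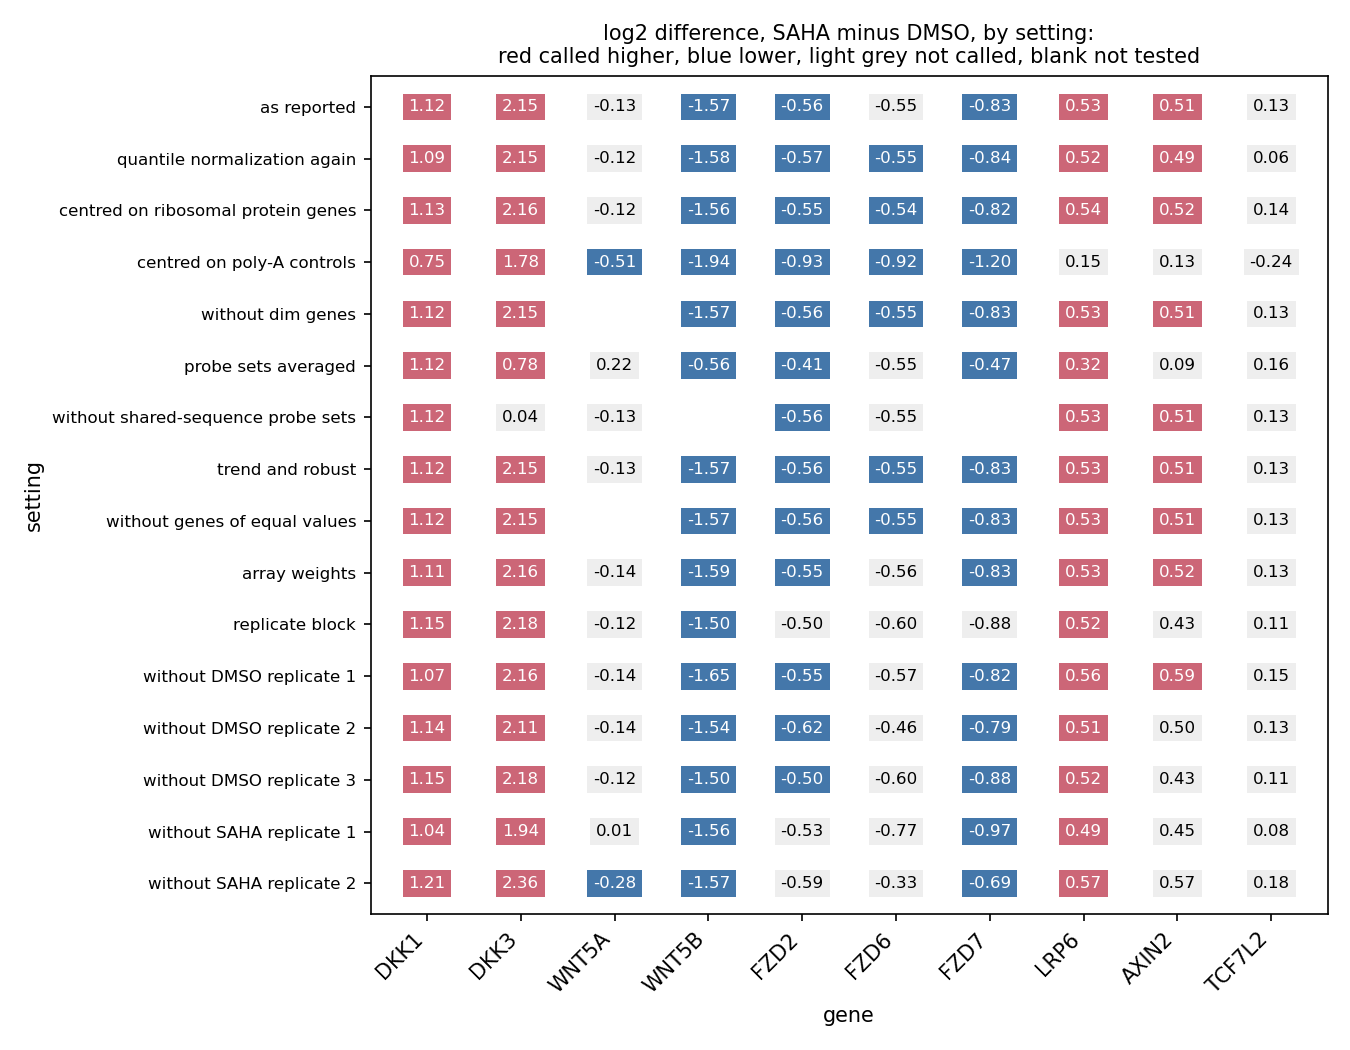
Log2 difference, SAHA minus DMSO, of the 10 genes (columns) as reported and under 15 alternative settings (rows), red where called higher, blue where called lower, light grey where not called and blank where the setting left the gene out. DKK1 is called higher in every row, AXIN2 loses its call in 7, and centring on the poly-A controls lowers the whole row.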

How the data were processed

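The 5 arrays each read total RNA of MDA-MB-231 cells in a single colour. Per the submitters' processing notes, the authors used RMA and R 2.12. The deposited values are intensity on a linear scale, one per probe set and array, so log2 was taken, and they were not normalized again. RMA includes quantile normalization, which removes a shift common to all transcripts. Without detection calls it is unknown which probe sets exceed background, and the number of arrays limits the precision.

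Of 54675 probe sets, 41091 had 1 gene, 1801 several, 11721 none and 62 were controls. For 41037 single-gene probe sets the symbol was taken from RefSeq through the gene identifier, whether or not it differed from the platform annotation. Only single-gene probe sets were tested. In R 4.3.3, limma 3.58.1 (lmFit and eBayes, no covariates, 3 residual and 1.62 prior degrees of freedom) compared SAHA with DMSO across all 19775 genes, with Benjamini-Hochberg adjustment, two-sided; the code was tested on simulated data. A second limma fit covered all 41091 single-gene probe sets. The genes and lists were chosen with earlier results of these data known. Named genes were the 10 genes, up to 4 called genes of each list with the largest differences (the 2 largest where 0 passed) and 3 nearest profiles for 2 genes. CCND1, NKD1, NOTUM, SP5, CTNNB1, APC, LRP5, ROR2, RYK, KREMEN1, DKK2 and DKK4 were named outside this rule, after their values were seen. The alternatives changed the scaling, how a gene's probe sets are combined, the treatment of dim genes or of genes with equal readings, array weighting, the variance prior, the arrays used, the threshold (0.01) and, by a replicate block, the design. The time of 30 h is that of the labels' treatment text; their extraction text instead times lysis in days after a transfection, which is named nowhere else in the labels. Figures were drawn with matplotlib 3.10.9.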

Additional observations from a re-analysis of the deposited data

How the results depend on the processing

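Of the called genes among the 10, DKK1, DKK3, WNT5B, FZD7 and LRP6 kept their calls with each array left out in turn, with ranges of 1.04 to 1.21, 1.94 to 2.36, -1.65 to -1.50, -0.97 to -0.69 and 0.49 to 0.57. Over the 10 genes and the settings other than single probe sets, 122 of 146 values kept their direction and side of the threshold, 13 lost and 8 gained a call, and 3 turned sign. Part of this is fixed in advance. Leaving out dim genes or genes with equal readings, or changing the variance prior, can move only the call and not the log2 difference. For DKK1 and FZD6, with 1 probe set each, the same holds for averaging and for dropping shared-sequence probe sets. Dropping these also cannot move the log2 difference of WNT5A, FZD2, LRP6, AXIN2 and TCF7L2, whose brightest probe sets are not of that kind. Under poly-A centring, 2 of the 10 were called higher and 5 lower, 11 pathway genes higher and 75 lower, and 20 of 31 probe sets were called; the median gene was then at -0.40, and over all genes 1380 were called higher and 14740 lower, against 2760 and 3089. Of the 10 genes and those named by the rule, TCF7L2 (-0.24), WLS (-0.27), RNF43 (-0.14) and GSK3B (-0.11) turned sign there; the genes named outside the rule were not run under the alternatives. WNT5A gave 0.22 with probe sets averaged and -0.28 to 0.01 with an array left out, WLS -0.04 to 0.25, and PTK7 -0.10 without shared-sequence probe sets. Single probe sets against the sign of their gene gave -0.02 and -0.23 (DKK3), 0.57 (WNT5A), 0.01 (WNT5B), and -0.19 and -0.10 (AXIN2). Without shared-sequence probe sets 1 of the 10 was called lower, since WNT5B and FZD7 then have no probe set left and 8 genes remain.

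Arrays of the 2 groups share the replicate numbers 1 and 2. Deviations from the group means correlated at 0.15 between DMSO 1 and SAHA 1 and at -0.07 between DMSO 2 and SAHA 2. With 2 SAHA arrays the deviations mirror each other (0.15 and -0.15 for DMSO 1), so these values cannot show whether the numbers mark pairs. The fit as reported did not use the numbers as pairs, and the replicate block did. With a replicate block, 3 of the 10 were called higher (DKK1, DKK3 and LRP6) and 1 lower (WNT5B). AXIN2, FZD2 and FZD7 lost their calls there (limma adjusted p = 0.0545, 0.0741 and 0.0583). In that setting 9 pathway genes were higher and 4 lower. Of the 31 probe sets, 0 were called in limma and 11 had an unadjusted p under 0.05. Over all genes 1262 were higher and 1316 lower, and 1 residual degree of freedom was left. At an adjusted p under 0.01, 10 pathway genes were higher and 5 lower, and 1544 and 1773 of all genes. With an array left out, 3 to 4 of the 10 were called higher and 2 to 3 lower, 9 to 15 and 5 to 14 pathway genes, 6 to 9 probe sets, and 1769 to 2234 and 1985 to 2797 of all genes. Such fits have fewer degrees of freedom, and without a SAHA array the lone one is assumed to vary like DMSO. The alternatives for the probe set count were chosen after the data were seen.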
